A study of Mus musculus with 24 samples.

Results

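The 10 genes described here mark the dopamine neurons of the ventral midbrain and the floor plate from which those neurons arise. They are *Th*, *Ddc*, *Slc18a2*, *Slc6a3*, *Nr4a2*, *Pitx3*, *Lmx1a*, *Lmx1b*, *Foxa1* and *Foxa2*, 10 of the 54446 genes counted in each library. They were chosen by name for their known roles and not by their values, though earlier results of these data were known. RNA-seq was carried out on 24 libraries from 12 mouse embryos at E14.5, with each brain cut into the secondary prosencephalon (SP: telencephalon and hypothalamus) and the diencephalon, midbrain and hindbrain (DMH). The control groups were *Tfap2b*+/+ and the mutant groups *Tfap2b*-/- littermates of heterozygous parents, with 3 female and 3 male embryos of each genotype. The labels name no treatment, and the strain of the line was not given in the sources used here. In the mutant allele a PGK-neo cassette sits in exon 4 of *Tfap2b*, the gene of the transcription factor AP-2β, and the allele is constitutive. The comparison of genotypes asks what loss of AP-2β does to gene expression in the developing brain, and the comparison of regions asks where the 10 genes were expressed.

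Dopamine is made from tyrosine by a pair of enzymes, loaded into vesicles, released and taken up again, and each step has a dedicated protein. *Th* encodes tyrosine hydroxylase, the rate-limiting enzyme, *Ddc* the decarboxylase that makes dopamine from L-DOPA, *Slc18a2* the vesicular monoamine transporter VMAT2 and *Slc6a3* the plasma membrane dopamine transporter DAT. The forkhead factors *Foxa1* and *Foxa2* act in the floor plate with the LIM homeodomain factors *Lmx1a* and *Lmx1b*, while the orphan nuclear receptor *Nr4a2* (Nurr1) and the homeodomain factor *Pitx3* act in the postmitotic neurons. Only *Slc6a3* and *Pitx3* come close to being private to dopamine neurons within the brain. Noradrenergic neurons share *Th*, *Ddc* and *Slc18a2*, serotonergic neurons share *Ddc*, *Slc18a2* and *Lmx1b*, the cortical hem and roof plate share *Lmx1a*, the subthalamic lineage shares *Foxa1* and *Lmx1b*, and cortical neurons share *Nr4a2*. In bulk tissue fewer cells of a type and less RNA per cell cannot be told apart.

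Levels are given as CPM, the fragments of a gene scaled to those counted on all genes of its library (TMM), and the libraries held 24.7 to 66.8 M such fragments (median 32.1 M). *Tfap2b*, the targeted gene, lay between 281 and 435 CPM in the 6 DMH control libraries and between 50.4 and 56.6 CPM in the 5 DMH mutants that entered the tests, a log2 fold change of -2.85 ± 0.11 (SE, adjusted p = 2.5e-07, edgeR quasi-likelihood test). Its mRNA was thus lower but present in DMH mutants, and it was at 2.75 to 4.72 CPM in all 12 SP libraries. Female mutant 3 was left out of the tests of both regions, which follows the study. Its DMH library stood apart with 801 CPM over a list of skeletal muscle genes, against 6.11 to 9.09 CPM in the other 11. Of the 12 DMH libraries, 4 held next to no caudal *Hox* transcripts, the genes of the hindbrain behind its front end. Summed over 15 such genes they were at 0.0378 CPM in female control 1, 0.105 CPM in female mutant 2, 0.942 CPM in female mutant 1 and 15.3 CPM in male mutant 2, against 352 to 541 CPM in the other 8. The differences between genotypes and between regions are therefore given with and without these libraries. Both libraries of female control 2 held 122 to 133 CPM of 4 Y-linked genes, within or just under the range of the male libraries, while the other 10 libraries labelled female were at or under 0.0351 CPM. The label was kept, and without this embryo 0 of the 10 genes were called between genotypes in each fit that held it, as with it.

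The start sites of the 10 genes were matched to RefSeq windows on GRCm38.p6 that run from 250 bases before to 50 bases after the start, and all 10 had at least 1 window, 13 windows in all. The 4 windows below are shown because the first 2 belong to a pair of genes that act in sequence in the same neurons and carry the same 8 letters, and the other 2 belong to the most private genes of the set and carry the letters that AP-2 factors are known to bind. Capitals mark the cAMP response element TGACGTCA in *Th* and *Slc18a2* and GCCNNNGGC, where N is any base, in *Slc6a3* and *Pitx3*. The windows lie at chr7:142899946-142900245 (minus strand), chr19:59260628-59260927 (plus strand), chr13:73536497-73536796 (plus strand) and chr19:46148276-46148575 (minus strand).
*Th*: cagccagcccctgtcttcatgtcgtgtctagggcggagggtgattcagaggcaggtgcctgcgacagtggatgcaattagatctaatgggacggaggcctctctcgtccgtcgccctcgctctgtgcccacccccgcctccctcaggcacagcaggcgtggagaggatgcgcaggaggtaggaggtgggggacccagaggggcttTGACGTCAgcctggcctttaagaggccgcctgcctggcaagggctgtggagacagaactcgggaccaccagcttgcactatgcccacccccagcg
*Slc18a2*: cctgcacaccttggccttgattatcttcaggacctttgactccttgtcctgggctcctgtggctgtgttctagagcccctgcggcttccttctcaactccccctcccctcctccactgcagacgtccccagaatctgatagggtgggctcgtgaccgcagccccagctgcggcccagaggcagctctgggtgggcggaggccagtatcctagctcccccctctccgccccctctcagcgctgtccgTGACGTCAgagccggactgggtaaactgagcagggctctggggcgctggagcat
*Slc6a3*: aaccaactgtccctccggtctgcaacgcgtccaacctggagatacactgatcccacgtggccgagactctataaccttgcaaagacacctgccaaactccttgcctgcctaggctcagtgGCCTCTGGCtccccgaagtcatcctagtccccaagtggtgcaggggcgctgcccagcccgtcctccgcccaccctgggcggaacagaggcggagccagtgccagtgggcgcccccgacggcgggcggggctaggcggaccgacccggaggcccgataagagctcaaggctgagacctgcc
*Pitx3*: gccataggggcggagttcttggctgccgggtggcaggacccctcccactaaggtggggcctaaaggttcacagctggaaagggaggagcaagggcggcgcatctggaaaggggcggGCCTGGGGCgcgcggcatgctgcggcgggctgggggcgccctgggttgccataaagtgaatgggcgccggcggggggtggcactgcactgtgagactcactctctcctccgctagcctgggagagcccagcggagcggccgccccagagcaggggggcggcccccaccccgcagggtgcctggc
The cAMP response element began 45 bases before the start site in *Th* and 4 bases before it in *Slc18a2*, and was in no other window of the set. Searched on both strands, it was present in 1.79% of 32851 promoter windows of the same length. GCCNNNGGC began 130 bases before the start of *Slc6a3* and 134 bases before that of *Pitx3*, and was also in windows of *Nr4a2* and *Foxa2*. It was thus in 5 of the 13 windows of the set and in 16.6% of all windows. The 8 letters AAAGGTCA, to which Nurr1 binds, were in a window of *Ddc* alone and in 1.51% of all windows. The forkhead letters TGTTTAC or TATTTAC were in another window of *Ddc*, in that of *Foxa1* and in 6.545% of all windows. The homeodomain letters TAATTA were in none of the set and in 5.29% of all windows. A match of letters is a description and was not tested as a binding site.

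On GRCm38 *Th* spans chr7:142892752-142931128, *Ddc* chr11:11814101-11898144, *Slc18a2* chr19:59260896-59296012 and *Slc6a3* chr13:73536747-73578672. *Nr4a2* spans chr2:57106830-57124003, *Pitx3* chr19:46135685-46148326, *Lmx1a* chr1:167689237-167848741, *Lmx1b* chr2:33560965-33640511, *Foxa1* chr12:57540628-57546916 and *Foxa2* chr2:148042877-148046969. Counts are summed over the exons of each gene. *Pitx3* overlaps the protein-coding *Elovl3* on the opposite strand, *Ddc* and *Slc18a2* overlap antisense transcripts and *Lmx1b* overlaps *Gm38011*, also on the opposite strand, and the counts of a single strand were used.

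In DMH of the 6 control embryos all 10 genes were transcribed, at levels that differed widely once divided by the length of each gene's merged exons. *Nr4a2* was highest, at 12.9 ± 1.77 CPM per kb (SD, n = 6), and did not overlap with *Lmx1b*, the next, at 8.10 ± 1.71 CPM per kb. *Lmx1a* (4.85 CPM per kb), *Foxa1* (4.80), *Slc18a2* (4.51), *Th* (4.13), *Ddc* (3.66) and *Foxa2* (2.28) followed, each overlapping with its neighbour in this order. *Slc6a3* at 0.878 ± 0.221 CPM per kb and *Pitx3* at 0.869 ± 0.458 CPM per kb were lowest. *Pitx3* overlapped with both *Slc6a3* and *Foxa2*, while *Slc6a3* did not overlap with *Foxa2*. In SP of the same embryos *Nr4a2* led again with 7.78 ± 0.791 CPM per kb. *Slc18a2* followed with 4.18, *Lmx1a* with 1.61, *Th* with 0.737 and *Ddc* with 0.539 CPM per kb, of which only *Th* and *Ddc* overlapped. The other 5 genes were under 0.2 CPM per kb on average. In both regions *Nr4a2* was first and *Pitx3* last.

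**Figure D1:**
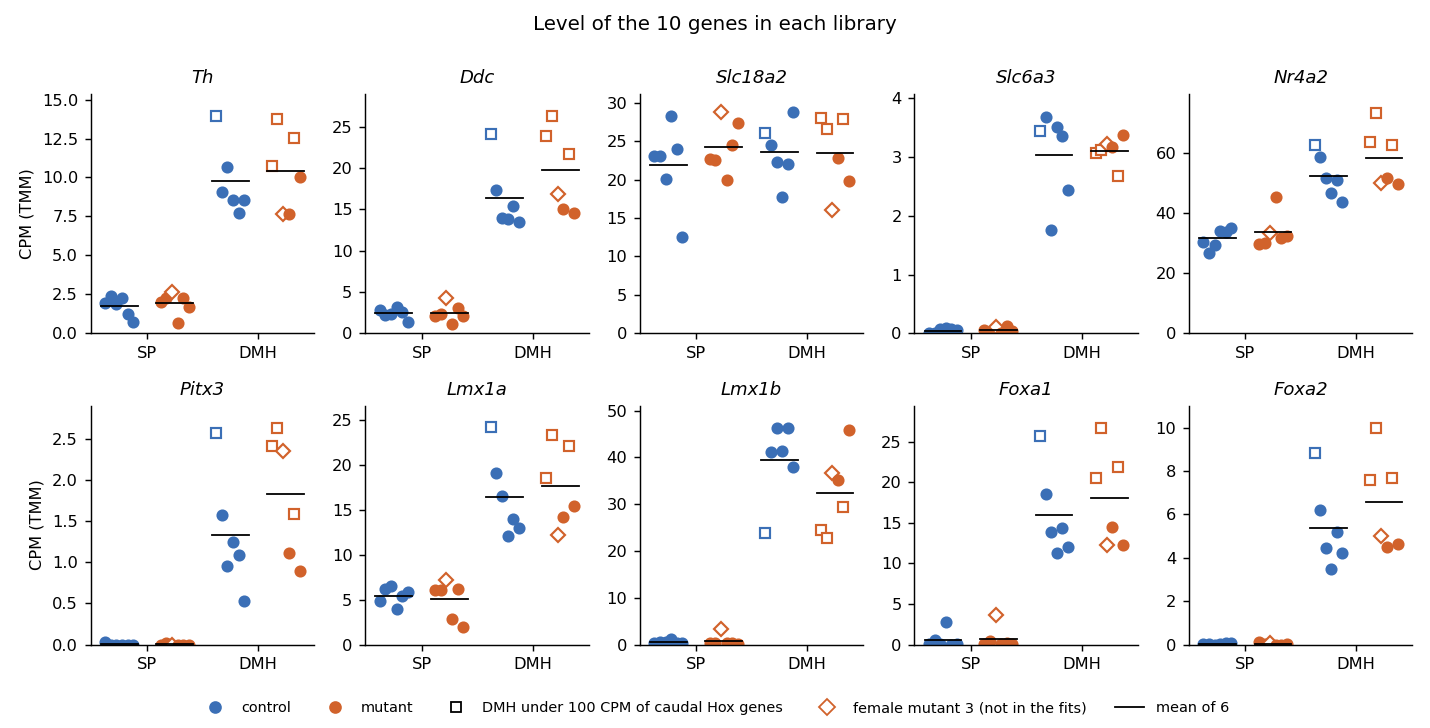
Level of each of the 10 genes, as TMM-scaled CPM on the vertical axis, in SP and DMH libraries of control and mutant embryos, with 1 point for each library and a line at the mean of 6. Open squares are the 4 DMH libraries under 100 CPM of caudal *Hox* transcripts and diamonds are female mutant 3. *Slc6a3*, *Pitx3* and *Foxa2* lie at or next to 0 in SP, while *Slc18a2* overlaps between the regions, at 12.6 to 28.7 CPM in SP and 16.1 to 28.8 CPM in DMH.

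In the control embryos 8 of the 10 genes were called higher in DMH than in SP (adjusted p under 0.05 and a log2 fold change over 1), and none lower. Over all genes tested 14.9% passed this rule in either direction and 9.84% as higher in DMH. The levels in the 6 DMH libraries lay above those in the 6 SP libraries without overlap for 9 of the 10, which was so in either direction for 40.9% of all genes. The median log2 fold change was 3.71 over the 10 genes and -0.0042 over all genes. The 2 genes outside the rule were *Slc18a2* and *Nr4a2*.

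Of the 2 enzymes, *Th* was at 7.74, 8.82 and 13.9 CPM (lowest, median and highest of 6) in DMH of controls and at 0.737, 1.91 and 2.39 CPM in SP. Its log2 fold change was 2.48 ± 0.20 (SE, adjusted p = 7.8e-08). *Ddc* was at 13.5, 14.6 and 24.1 CPM in DMH and at 1.35, 2.42 and 3.24 CPM in SP, a log2 fold change of 2.74 ± 0.19 (adjusted p = 4.1e-08). Both enzymes were thus measured in every SP library, well above the floor of 3 counts, at a lower level than in any DMH library. The DMH level also holds the noradrenergic and serotonergic neurons of the hindbrain, which use the same enzymes: 4 of 4 noradrenergic genes tested and 6 of 6 serotonergic genes were called higher in DMH, and their share in the difference was not tested.

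The 2 transporters differed from each other. *Slc6a3* was at 1.76, 3.40 and 3.69 CPM in DMH of controls. In SP it was at 0 to 0.0824 CPM, which is at most 3 counts in each of the 6 libraries. Pooled over the embryos 588 counts in DMH stood against 10 in SP, a ratio of 60.1 after scaling (exact 95% interval 32.5 to 126, counting error only). *Slc18a2*, which monoamine neurons of the hypothalamus and hindbrain also use, was at 17.8, 23.4 and 28.8 CPM in DMH and at 12.6, 23.1 and 28.3 CPM in SP. The 2 ranges overlapped over most of their length, and the log2 fold change of 0.11 ± 0.18 did not pass (adjusted p = 0.614). Of the fragments counted at *Slc18a2* 17.7% lay on the opposite strand, where an antisense transcript is annotated, against 0.360 to 2.62% for the other 9 genes. These were not part of its level.

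Of the 2 factors of postmitotic neurons, *Pitx3* was at 0.531, 1.16 and 2.57 CPM in DMH of controls, and in SP a single fragment was counted over the 6 libraries. The pooled ratio, 245 counts against 1, was 250.6 (exact 95% interval 44.6 to 9939). *Nr4a2* was at 43.5, 51.2 and 62.7 CPM in DMH and at 26.8, 32.1 and 35.1 CPM in SP. Every DMH library lay above every SP library (log2 fold change 0.72 ± 0.09, adjusted p = 8.1e-06), but the difference was under the fold that the rule asks for. *Pitx3* and *Nr4a2*, both required by the same neurons, thus differed between regions to very unequal extents.

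Of the 2 LIM homeodomain factors, *Lmx1a* was at 12.0, 15.3 and 24.2 CPM in DMH of controls and at 3.899, 5.61 and 6.56 CPM in SP, a log2 fold change of 1.56 ± 0.13 (adjusted p = 7.6e-08). *Lmx1b* was at 23.8, 41.3 and 46.4 CPM in DMH and at 0.280, 0.400 and 1.18 CPM in SP, a log2 fold change of 6.23 ± 0.29 (adjusted p = 5.9e-09). The 2 paralogs were therefore far from equal in SP, where per length *Lmx1a* was the higher in all 6 control libraries, while *Lmx1b* was the higher in 5 of 6 in DMH. In the cortical hem and roof plate list, which marks other cells that use *Lmx1a*, 1 of 6 genes was called higher in DMH and 3 lower.

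Of the 2 forkhead factors, *Foxa1* was at 11.3, 14.1 and 25.7 CPM in DMH of controls and at 0, 0.0709 and 2.83 CPM in SP, where 4 of 6 libraries held at most 3 counts. Its log2 fold change was 4.67 ± 0.76 (adjusted p = 0.00033) and was 6.89 without male control 1, the SP library with 2.83 CPM. *Foxa2* was at 3.48, 4.82 and 8.84 CPM in DMH and at 0 to 0.0763 CPM in SP. The pooled counts of *Foxa2*, 1043 against 8, gave a ratio of 133 (exact 95% interval 67.4 to 310). Both factors were thus found in every DMH library and at or near the floor in most SP libraries.

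In the mutants the same comparison gave the same 8 calls, all higher in DMH, against 14.4% of all genes in either direction and 8.97% higher in DMH. Again 9 of 10 genes did not overlap between regions (37.6% of all genes), and the median log2 fold change was 4.51 over the 10 genes. *Th* differed by 2.58 ± 0.25, *Ddc* by 3.16 ± 0.23, *Lmx1a* by 1.99 ± 0.26, *Lmx1b* by 6.72 ± 0.25 and *Foxa1* by 6.85 ± 0.35 on the log2 scale (SE, 5 embryos). *Slc18a2* was at 0.05 ± 0.11 (adjusted p = 0.736) and *Nr4a2* at 0.78 ± 0.16 (adjusted p = 0.0016). In the 3 mutant embryos rich in caudal *Hox*, female mutant 3 included, *Nr4a2* was at 0.39 ± 0.17 and did not pass (adjusted p = 0.127), and *Slc18a2* was at -0.43 ± 0.19 (adjusted p = 0.131). Pooled ratios were 64.3 for *Slc6a3* (interval 32.4 to 150), 262 for *Pitx3* (46.6 to 10375) and 176 for *Foxa2* (80.8 to 482). With female mutant 3 added, the value of *Foxa1* was 4.88 and that of *Lmx1b* 5.38. The difference between the genotypes in this regional difference was tested directly as an interaction. None of the 10 genes passed (0.00573% of all genes did, and 0 of the 10 against 2.04% had an unadjusted p under 0.05). The largest estimate with a usable error was that of *Foxa1*, 2.16 ± 1.15 (adjusted p = 0.999, edgeR quasi-likelihood test). It rested on single libraries, being -0.05 without male control 1 and 0.01 with female mutant 3 added.

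Without the embryos low in caudal *Hox* the same 8 genes were called higher in DMH, in the 5 controls as in the 3 mutants, against 15.6% and 15.8% of all genes in either direction. In these controls the log2 fold change was 2.39 for *Th*, 2.66 for *Ddc*, 1.40 for *Lmx1a*, 6.23 for *Lmx1b* and 4.29 for *Foxa1*. *Nr4a2* was at 0.65 ± 0.09 (adjusted p = 3.3e-05) and *Slc18a2* at 0.09. In these mutants *Th* was at 2.36, *Ddc* at 2.70, *Lmx1a* at 1.901, *Lmx1b* at 5.53 and *Foxa1* at 4.39. These 3 embryos include female mutant 3, whose SP library was the highest of 12 in *Foxa1* and *Lmx1b*.

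The rest of the pathway was read from lists that hold none of the 10 genes. Of the factors that pattern the midbrain floor plate and its dopamine progenitors, 8 of 13 tested were called higher in DMH of controls and 2 lower, against 9.84% of all genes higher and 14.9% in either direction. The Wnt and hedgehog ligands *Wnt1* and *Shh* differed by 6.78 and 1.34, the floor plate protease *Corin* by 5.97 and the homeodomain factors *En1*, *En2* and *Otx2* by 10.72, 9.91 and 2.07 on the log2 scale. *Msx2* (1.14) and *Ferd3l* (6.12) were the other 2 of the 8. Among the lower was the proneural factor *Neurog2* (-2.08), which the cortex uses at a high level.

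Of 15 genes of dopamine neuron differentiation and subtypes, 7 were called higher and 1 lower in DMH of controls. The higher genes were *Aldh1a1* (3.84), which makes retinoic acid, the GDNF receptor genes *Ret* (3.73) and *Gfra1* (2.08), the autoreceptor *Drd2* (1.19), the potassium channel *Kcnj6* (2.05), the vesicular glutamate transporter *Slc17a6* (1.23) and the factor *Ebf1* (1.31). The lower gene was the factor *Sox6* (-1.45). Of 6 genes for the pterin cofactor of tyrosine hydroxylase 3 were called higher, namely *Gch1*, the rate-limiting enzyme of its synthesis (1.75), *Pcbd1* (1.34) and *Gchfr* (1.79). None of 4 genes of dopamine breakdown was called. Of 2 dopamine receptors tested *Drd2* was higher and *Drd1*, a marker of striatal neurons, was lower (-1.62). Without the control low in caudal *Hox* 15.6% of all genes were called between regions. The counts were then 8 higher and 2 lower of 14 floor plate and progenitor factors, 7 and 1 of 15 differentiation genes, 3 and 0 of 6 pterin genes, 5 and 0 of 5 noradrenergic genes, 6 and 0 of 6 serotonergic genes and 1 and 3 of 6 genes of the cortical hem and roof plate.

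The comparison of genotypes gave no call among the 10 genes, at the thresholds of the study (adjusted p under 0.2 and a log2 fold change beyond 0.5 in either direction). In female DMH (2 mutants against 3 controls) 0 of 10 were called against 0.00596% of all genes, in male DMH (3 against 3) 0 of 10 against 0.0236%, and in DMH of both sexes with sex as a covariate (5 against 6) 0 of 10 against 0.0478%. In SP 7, 6 and 6 of the 10 genes passed the filter on low counts in the female, male and joint fits, and 0 were called in each, against 0.0181%, 0% and 0% of all genes. DESeq2 called 0 of the 10 in each of these fits as well. Genes of the dopamine pathway listed above were not called in DMH of both sexes either: 0 of 14 floor plate and progenitor factors (11 higher and 3 lower in mutants, median log2 fold change 0.20), 0 of 15 differentiation genes (3 higher and 12 lower, median -0.06), 0 of 6 pterin genes, 0 of 4 breakdown genes and 0 of 3 receptors. Among the neighbouring monoamine systems 0 of 6 serotonergic genes were called. Of 5 noradrenergic genes 2 were called lower, *Dbh*, the enzyme that turns dopamine into noradrenaline (-3.62 ± 0.48, adjusted p = 0.0686), and *Slc6a2*, the noradrenaline transporter (-2.15 ± 0.33, adjusted p = 0.166). Without the libraries low in caudal *Hox* the mutants left were male mutants 1 and 3, with no female mutant, against 5 controls. In that fit *Dbh* was again called at -2.84 ± 0.18 (adjusted p = 0.00014, edgeR) and *Slc6a2* at -1.95 ± 0.14 (adjusted p = 0.00023). It called 0 genes of the other lists named here and 0.0228% of all genes.

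In DMH of both sexes 9 of the 10 genes had a higher mean in mutants and 1, *Lmx1b*, a lower one, with a median log2 fold change of 0.23 over the 10 genes and -0.0018 over all genes. An unadjusted p under 0.05 was found for 2 of the 10 and for 15.2% of all genes, and 0 of the 10 against 0.173% of all genes did not overlap between the genotypes. The 2 were *Nr4a2* and *Ddc*. *Nr4a2* was at 43.5, 51.2 and 62.7 CPM in controls and at 63.5, 73.4, 51.7, 62.6 and 49.7 CPM in female mutants 1 and 2 and male mutants 1 to 3. The 3 mutants above 60 CPM were the 3 low in caudal *Hox*, and the other 2 lay inside the range of the controls. The log2 fold change of *Nr4a2* was 0.22 ± 0.07 (adjusted p = 0.323). *Ddc* was at 13.5, 14.6 and 24.1 CPM in controls and at 23.9, 26.3, 15.04, 21.7 and 14.6 CPM in the mutants in the same order, a log2 fold change of 0.34 ± 0.14 (adjusted p = 0.323). The highest control of both genes, at 62.7 CPM of *Nr4a2* and 24.1 CPM of *Ddc*, was the control low in caudal *Hox*.

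The remaining 8 genes gave log2 fold changes of -0.39 ± 0.18 for *Lmx1b* (adjusted p = 0.330), 0.47 ± 0.27 for *Pitx3* (0.364), 0.40 ± 0.19 for *Foxa2* (0.332), 0.32 ± 0.18 for *Foxa1* (0.371), 0.25 ± 0.14 for *Lmx1a* (0.362) and 0.20 ± 0.14 for *Th* (0.438). *Slc18a2* (0.08 ± 0.12, adjusted p = 0.716) and *Slc6a3* (0.02 ± 0.17, adjusted p = 0.960) were closest to 0. *Lmx1b* was at 24.6, 22.8, 35.2, 29.5 and 45.9 CPM in the 5 mutants and at 23.8, 41.3, 46.4, 41.4, 46.3 and 38.0 CPM in the 6 controls, so that the 4 lowest of these values are the 4 libraries low in caudal *Hox*. *Th* was at 10.7, 13.8, 7.67, 12.6 and 10.01 CPM in the mutants and at 13.9, 9.07, 10.7, 8.56, 7.74 and 8.56 CPM in the controls (females first), and the 2 groups overlapped almost fully. *Slc6a3* was at 3.07, 3.12, 3.17, 2.68 and 3.37 CPM in the mutants, inside the range of 1.76 to 3.69 CPM of the controls. *Pitx3* was at 2.42, 2.63, 1.11, 1.59 and 0.892 CPM in the mutants against 0.531 to 2.57 CPM in the controls.

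The sexes were also fitted apart. In female DMH 1 of 10 genes had an unadjusted p under 0.05 (8.9% of all genes), *Nr4a2* with 0.26 ± 0.10, and 2 of 10, *Nr4a2* and *Slc18a2*, did not overlap between the genotypes (25.9% of all genes). The 2 female mutants of *Slc18a2* were at 28.0 and 26.5 CPM and the 3 female controls at 26.1, 24.6 and 22.3 CPM, while female mutant 3, left out, was at 16.1 CPM, under every control. The same library was at 49.9 CPM of *Nr4a2*, also under the 3 female controls (51.5 to 62.7 CPM). In this fit *Lmx1b* (-0.64 ± 0.29, adjusted p = 0.568, edgeR) and *Pitx3* (0.60 ± 0.36, adjusted p = 0.584) were past the fold of the rule but not its p. Without a filter on low counts *Ddc* (0.46, adjusted p = 0.0084), *Nr4a2* (0.26, adjusted p = 0.104) and *Foxa2* (0.45, adjusted p = 0.170) met its p but not its fold (edgeR). Both female mutants in this fit were low in caudal *Hox*, as was female control 1. Without that control 5 of the 10 genes were called, *Ddc* (0.70), *Pitx3* (1.01), *Foxa1* (0.56) and *Foxa2* (0.74) higher and *Lmx1b* (-0.87) lower in mutants, among 1117 of 16848 genes tested (6.63%). In that fit every mutant was low in caudal *Hox* and every control rich, so the 2 cannot be told apart. In male DMH 1 of 10 had an unadjusted p under 0.05 (2.89% of all genes), *Lmx1a* with 0.37 ± 0.16, and *Lmx1a* alone did not overlap (9.93% of all genes). Its male mutants were at 14.2, 22.1 and 15.5 CPM and its male controls at 12.0, 13.96 and 12.95 CPM. The highest was male mutant 2, the library low in caudal *Hox*, and without it the log2 fold change of *Lmx1a* was 0.17 ± 0.10 (adjusted p = 1.00, edgeR). Female mutants 1 and 2 of *Lmx1a*, at 18.5 and 23.3 CPM, lay within the range of the female controls of 16.5 to 24.2 CPM. The interaction of genotype and sex in DMH was called for 0 of the 10 genes and 0% of all genes, with an unadjusted p under 0.05 for 0 of the 10 and 2% of all genes. Its largest estimate was that of *Lmx1b*, 0.43 ± 0.36 (male minus female, adjusted p = 1.00, edgeR quasi-likelihood test).

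The genotype differences in DMH moved with the caudal *Hox* level. Of the 11 DMH libraries in the fit 3 of the 5 mutants but 1 of the 6 controls were low in these transcripts. Against the 8 *Hox*-rich libraries the 4 low ones had 1.81 times the mean level of *Foxa2*, 1.74 times that of *Foxa1*, 1.60 times that of *Ddc*, 1.46 times that of *Th* and 1.30 times that of *Nr4a2*, and these 5 genes did not overlap between the 2 sets of libraries. *Lmx1b* moved the other way, at 0.608 times, also without overlap, so that 6 of the 10 genes were apart against 19.8% of all 18113 genes. *Pitx3* (1.89 times), *Lmx1a* (1.52), *Slc18a2* (1.24) and *Slc6a3* (1.00) overlapped. These ratios describe the libraries and were given no test. In the same 4 libraries the summed level of a list of midbrain and rostral hindbrain genes was 403 to 459 CPM, against 252 to 402 CPM in the 8 others, and that of a subthalamic and premammillary list 220 to 260 CPM against 110 to 179 CPM. How much of each brain was in the piece and a change within its cells cannot be told apart.

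With the level of caudal *Hox* in the model, the 10 log2 fold changes between genotypes in DMH of both sexes lay between -0.06 and 0.12, with 7 above and 3 below 0 and a median of 0.06. Without the low libraries the mutants left were male mutants 1 and 3, with no female mutant, against 5 controls. In that fit the values lay between -0.13 and 0.17 with a median of 0.07. With female mutant 3 added and the low libraries left out, 5 were above and 5 below 0 with a median of -0.04, in a range of -0.27 to 0.45. The smallest adjusted p among the 10 was 0.997 in the first and 1.00 in the other 2 fits (edgeR). Among the *Hox*-rich libraries, *Nr4a2* was at 50.3 ± 5.65 CPM (SD, n = 5) in controls and 50.4 ± 1.11 CPM (n = 3, female mutant 3 included) in mutants. *Foxa2* was at 4.71 and 4.72 CPM, *Ddc* at 14.8 and 15.5 CPM, *Th* at 8.92 and 8.45 CPM and *Lmx1b* at 42.7 and 39.3 CPM in the same libraries. *Pitx3* was at 1.08 ± 0.38 CPM in controls and 1.45 ± 0.79 CPM in mutants, *Slc18a2* at 23.1 ± 4.03 and 19.6 ± 3.39 CPM, *Slc6a3* at 2.95 and 3.25 CPM, *Lmx1a* at 14.9 and 13.9 CPM and *Foxa1* at 14.04 and 12.97 CPM.

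**Figure D2:**
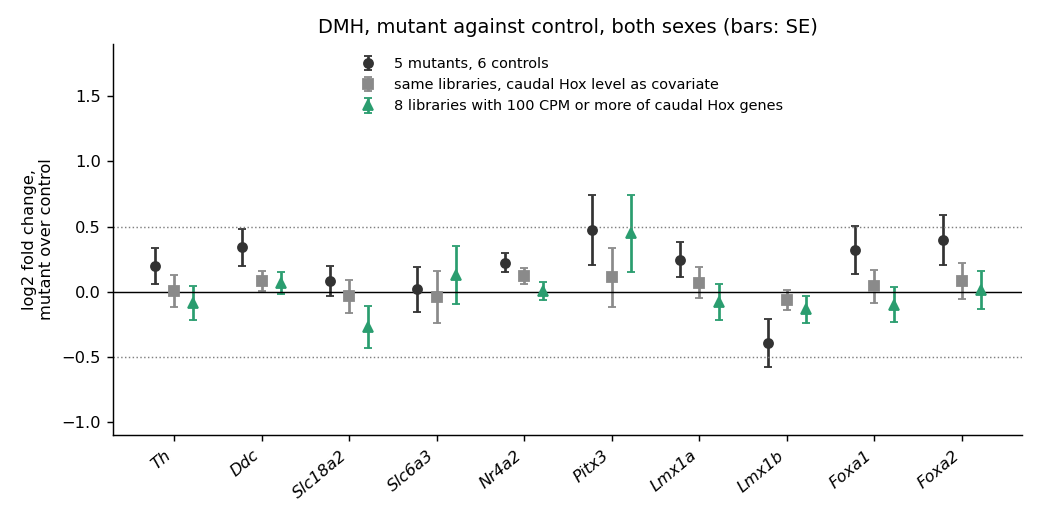
Log2 fold change of mutant over control in DMH of both sexes for each of the 10 genes, with bars of 1 SE, from 3 fits: 5 mutants against 6 controls, the same libraries with the level of caudal *Hox* in the model, and the 8 *Hox*-rich libraries with female mutant 3 included. Dotted lines mark 0.5 in either direction. The values of the first fit reach from -0.39 for *Lmx1b* to 0.47 for *Pitx3*, and those of the second fit lie between -0.06 and 0.12.

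Ratios of counts within a library take out its depth. The ratio of *Foxa1* to *Foxa2* counts lay between 2.46 and 3.26 in all 12 DMH libraries, with a median of 2.86 and a coefficient of variation of 8.35%, although both genes varied more than 2-fold between libraries. The ratio of *Ddc* to *Th* lay between 1.30 and 2.23 (median 1.82). The ratio of *Lmx1b* to *Lmx1a* was 2.17 to 3.43 in the 8 *Hox*-rich libraries (median 2.95) and 0.980 to 1.33 in the 4 low ones (median 1.16). The 2 forkhead genes thus kept their proportion over the 12 DMH libraries, while the 2 LIM homeodomain genes did not. Both mutant and control libraries lay on either side of that gap.

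**Figure D3:**
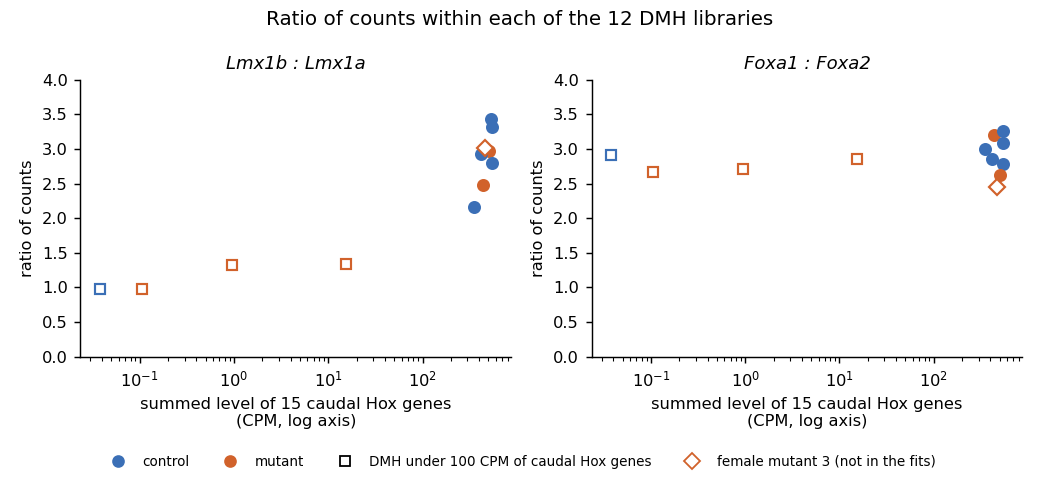
Ratio of *Lmx1b* to *Lmx1a* counts and of *Foxa1* to *Foxa2* counts in the 12 DMH libraries on the vertical axes, against the summed level of 15 caudal *Hox* genes in CPM on a log axis, with controls and mutants marked apart. The 4 libraries to the left have *Lmx1b* to *Lmx1a* ratios of 0.980 to 1.33 and the 8 to the right 2.17 to 3.43, while the ratio of *Foxa1* to *Foxa2* lies between 2.46 and 3.26 throughout.

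In SP none of the genes that could be tested passed between the genotypes. The log2 fold changes over both sexes were 0.10 ± 0.30 for *Th*, -0.13 ± 0.25 for *Ddc*, 0.10 ± 0.17 for *Slc18a2*, 0.08 ± 0.10 for *Nr4a2*, -0.20 ± 0.24 for *Lmx1a* and -0.88 ± 0.44 for *Lmx1b* (adjusted p 0.925 or above). An unadjusted p under 0.05 was found for 0 of the genes in the female, male and joint fits, against 2.58%, 3.65% and 4.84% of all genes, and none was without overlap, against 15.6%, 11.9% and 0.451%. *Lmx1b* rested on few fragments, 284 over 12 libraries, and on which library was left out. It was at 0.280 to 0.512 CPM in 5 controls and 1.18 CPM in male control 1, at 0.105 to 0.417 CPM in 5 mutants and at 3.32 CPM in female mutant 3. With that library added, its log2 fold change turned to 0.42.

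The 2 SP libraries that were high in *Lmx1b* were the same 2 that were high in *Foxa1*. Female mutant 3 held 3.60 CPM and male control 1 2.83 CPM of *Foxa1*, against at most 0.546 CPM in the other 10 SP libraries. They were also highest in *Barhl1*, a factor of the subthalamic lineage (2.41 and 1.32 CPM, others at most 0.182 CPM) and in the summed midbrain and rostral hindbrain list (17.04 and 12.8 CPM, others 2.69 to 7.42 CPM). *Slc6a3* was near the floor in them, with 4 and 3 counts (0.101 and 0.0824 CPM). Male mutant 2 held 5 counts (0.130 CPM) and female control 3 also 3 (0.0766 CPM), so its order among libraries rests on single fragments. *Pitx3* was at 0 in female mutant 3 and male control 1. *Foxa2* gave 17 fragments, *Slc6a3* 22 and *Pitx3* 2 over all 12 SP libraries.

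*Slc18a2* and *Nkx2-1*, a factor of the ventral hypothalamus, moved together between the 2 pieces of male control 3. Its SP library had the lowest *Slc18a2* of 12, 12.6 CPM, and the lowest *Nkx2-1*, 12.99 CPM against 32.5 to 51.2 CPM in the other 11. Its DMH library had the highest *Slc18a2* of 12, 28.8 CPM, with 30.7 CPM of *Nkx2-1*. The next in *Slc18a2*, DMH of female mutant 1, was close at 28.0 CPM. The DMH library of male control 3 was also highest of 12 in the forebrain factor *Dlx1* (103 CPM). *Th* in the SP of this embryo was at 0.737 CPM, the lowest of the 6 controls, and *Ddc* at 1.35 CPM, also the lowest. Without male control 3, 8 of the 10 genes were again called between regions in controls.

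**Figure D4:**
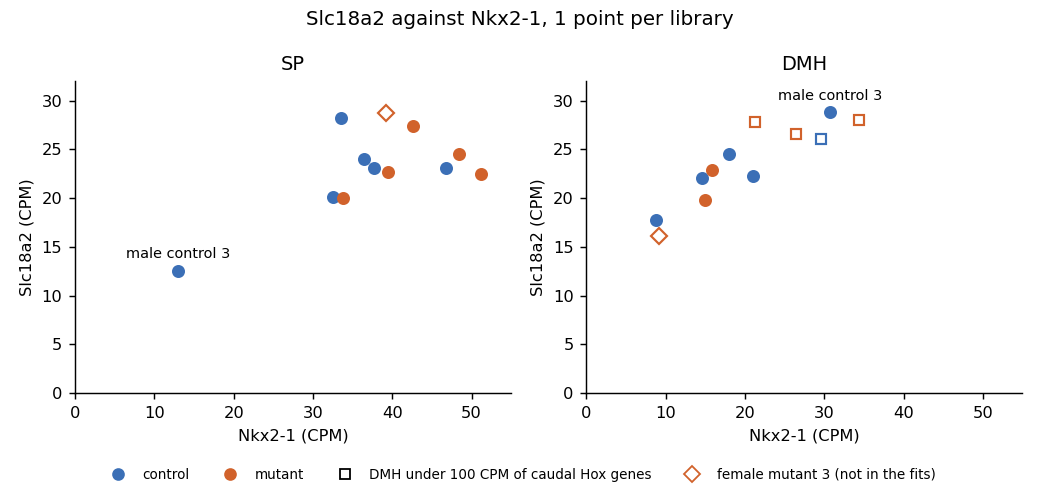
Level of *Slc18a2* against that of *Nkx2-1*, both in CPM, in the 12 SP libraries and the 12 DMH libraries, with controls and mutants marked apart and male control 3 labelled. Its SP point lies at 12.99 CPM of *Nkx2-1* and 12.6 CPM of *Slc18a2*, and its DMH point at 30.7 and 28.8 CPM.

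For each gene the 3 genes whose levels ran most alike over the 12 DMH libraries were sought among 18113 genes on the log2 scale, and the correlation was taken again within the 8 *Hox*-rich libraries, since the 12 fall into 2 sets. These values describe 8 libraries of 27.4 to 66.8 M counted fragments, which include female mutant 3. The 8 are among the 12 by which the genes were picked, so the values are not an independent check. For *Slc18a2* the 3 genes were *Sp8* (Pearson r = 0.93), *Nkx2-1* (0.93) and *Vax1* (0.90), all factors of the forebrain. For *Lmx1b* they were *C130021I20Rik* (0.91), the vesicular acetylcholine transporter *Slc18a3* (0.89) and *Pax8* (0.71). For *Nr4a2* they were *Vhl* (0.95), *Cstf2t* (0.92) and *Scrt1* (0.88), for *Pitx3* *Pgk1* (0.82), *Ddost* (0.88) and *Gas1* (0.87), and for *Slc6a3* *Gm4925* (0.88), *Klhl22* (0.92) and *Ppp1r13l* (0.88). For *Th* they were *Gstm6* (0.95), *Katnal2* (0.92) and *Zfp87* (0.78), and for *Ddc* *Arf4* (0.91), *Nucks1* (0.81) and *Fam172a* (0.84). For *Lmx1a* they were *Edc3* (0.96), *Cfl1* (0.99) and *Eif2b2* (0.95), for *Foxa1* *Psmd6* (0.97), *Maz* (0.98) and *Tox* (0.94), and for *Foxa2* *Rhoa* (0.93), *Rpl15* (0.91) and *Fbxw8* (0.95). None of the 10 genes was among the 3 nearest of another. Among themselves the 10 genes ran most alike for *Nr4a2* with *Foxa1* (0.88), *Ddc* with *Foxa2* (0.83), *Foxa1* with *Foxa2* (0.82) and *Lmx1a* with *Foxa1* (0.81), and least alike for *Slc18a2* with *Pitx3* (-0.70). Female mutant 3 was lowest of the 8 in *Slc18a2* and highest in *Pitx3*, and without it the last value was -0.45, the others in the same order being 0.90, 0.88, 0.90 and 0.81. The order of the pairs then changed, with *Ddc* and *Foxa1* most alike (0.91, against 0.63 over 8) and *Th* and *Slc6a3* least alike (-0.51 over 7 and over 8). Of the nearest genes named, *Pgk1* was then lowest with 0.68.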

How the data were processed

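RNA-seq counts were used from 24 libraries of SP and DMH of 12 embryos, 3 embryos for each sex and genotype. The values are raw counts of fragments per gene, deposited by the authors as 1 STAR table per library without normalization. The submitters' processing notes name cutadapt 2.4, STAR 2.6.1d, edgeR and mm10 (GRCm38.p6), while the annotation release was not given in the sources used here. Counts of the strand that dUTP libraries read were taken, those of both strands were an alternative, and 1 column was not used. Lines that name no gene held 17.3 to 25.9% of the fragments and were left out. Of 54446 identifiers 54409 matched a symbol in GENCODE.

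Tests were run in R 4.3.3 by the robust quasi-likelihood test of edgeR 4.0.16, with TMM scaling and the filterByExpr filter, each on its own libraries and with Benjamini-Hochberg adjustment over all genes tested. The fits over both sexes had sex as a covariate. Female mutant 3 was left out, which left 22 libraries. A genotype difference was called at an FDR under 0.2 with a log2 fold change beyond 0.5 in either direction, as in the study, and a region difference at an adjusted p under 0.05 with one beyond 1. Where SP libraries were at or under a floor of 3 counts, pooled counts with exact 95% intervals are given, which cover counting error only, since PCR copies are not independent molecules. The floor of a library sets what can be seen at its depth of 24.7 to 66.8 M fragments. Coordinates are those of GENCODE on GRCm38 and promoter windows those of RefSeq on GRCm38.p6. No 2 libraries of a condition were copies of each other (lowest chi-square per gene 9.62). The 3 replicates of a condition are separate embryos. DMH and SP of the same sex, genotype and number were taken as the same embryo, since the study cut each brain into both. The labels name no embryo. The deviations of these pairs from the group means correlated at 0.0698 to 0.428.

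All 10 genes are named in the comparisons of regions and in that of genotypes in DMH of both sexes. The passages on the other fits name some of them or none. *Tfap2b* is named as the check of the labels. From each list the genes past the rule are named, except some that are not reported here, and for each of the 10 genes the 3 with the highest Pearson r over the 12 DMH libraries on the log2(CPM + 0.5) scale. *Nkx2-1*, *Dlx1* and *Barhl1* were singled out after their values were seen. The genes, the lists and the tests were chosen with earlier results of these data known. The fits were tested on simulated data before use. Alternatives were other size factors, filters and strand counts, DESeq2 1.42.0, other thresholds, female mutant 3 included, the replicate number as a block, the caudal *Hox* level as a covariate, libraries low in caudal *Hox* left out, and each replicate left out. Python 3.11.15 with matplotlib 3.10.9 drew the figures.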

Additional observations from a re-analysis of the deposited data

Results flagged for a closer look

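A library stood apart from the rest of its group of 6, by its gap to the nearest other value relative to the range (Dixon's 95% criterion), in 7 of 36 groups of a gene, region and genotype, where chance gives about 5 percent. In 4 further groups every library was at or under 3 counts, and these were not tested. In DMH both cases fell on female control 1, a library low in caudal *Hox*. *Ddc* was highest there with 24.1 CPM (other controls 13.5 to 17.3 CPM) and *Lmx1b* lowest with 23.8 CPM (others 38.0 to 46.4 CPM). In SP of controls male control 1 was highest in *Lmx1b* with 1.18 CPM (others 0.280 to 0.512 CPM) and in *Foxa1* with 2.83 CPM (others 0 to 0.546 CPM). In SP of mutants female mutant 3 was highest in *Lmx1b* with 3.32 CPM (others 0.105 to 0.417 CPM) and in *Foxa1* with 3.60 CPM (others 0.0348 to 0.379 CPM). *Nr4a2* was highest in SP of male mutant 1 with 45.3 CPM (others 29.6 to 33.2 CPM). The summed telencephalon list of that library was 2089 CPM, the highest of the 12 SP libraries. The same library had the largest share of fragments assigned to no gene of all 24, 25.9% (others 17.3 to 21.05%), of unmapped reads, 9.98% (others at most 7.05%), and of multimapping reads, 7.85% (others at most 5.81%). The part of these in the value was not tested.

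The SP library of female mutant 3, left out of the tests, lay above every SP control for 7 of the 10 genes and for 9.51% of all 18113 genes. It held 2.66 CPM of *Th* (controls 0.737 to 2.39 CPM), 4.26 CPM of *Ddc* (1.35 to 3.24 CPM), 28.7 CPM of *Slc18a2* (12.6 to 28.3 CPM) and 7.15 CPM of *Lmx1a* (3.899 to 6.56 CPM). It also held 0.101 CPM of *Slc6a3* (0 to 0.0824 CPM, near the floor), 3.32 CPM of *Lmx1b* (0.280 to 1.18 CPM) and 3.60 CPM of *Foxa1* (0 to 2.83 CPM). Its summed midbrain and rostral hindbrain list was at 17.04 CPM, also the highest of the 12.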

How the results depend on the processing

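The number of the 10 genes called was recomputed 163 times over 26 settings, 4 of these alternatives having been added after the data were seen, and was within 1.5 times the value given in 160. Without female control 1, the control low in caudal *Hox*, 5 genes were called in female DMH in place of 0: *Ddc* (0.70), *Pitx3* (1.01), *Lmx1b* (-0.87), *Foxa1* (0.56) and *Foxa2* (0.74 on the log2 scale). In that fit 1117 of 16848 genes tested were called (6.63%), and leaving out each replicate in female DMH gave 0 to 5 of the 10. A filter of at least 10 counts in every sample left 5 of the genes to test between regions, of which 3 were called in controls and 3 in mutants in place of 8. The looser rule for genotypes applied to regions would also call *Nr4a2*, at 0.72 in controls and 0.78 in mutants. Of 1436 values of single genes 116 changed sign, at most 1.60 in size, each in a comparison where the gene was not called in the fit given. Of the 5 genes above only *Foxa1* was among them in female DMH, at -0.09 with caudal *Hox* in the model. With the replicate number as a block 0 genes were called in each genotype comparison and 8 in each region comparison. Controls and mutants of the same number deviated together at -0.155 to 0.541, over 0.1 in 7 of 12 pairs, and the labels name nothing that a number shares between them, so they were not treated as pairs. The total over all genes depended more on the setting: in female DMH 1 gene was called in the fit given, 535 without a filter, 76 by DESeq2 and 35 with the block, and in DMH of both sexes 8, 51 by DESeq2 and 515 without male mutant 1. The genotype by sex fit without libraries low in caudal *Hox* was not run, because no female mutant was left. With 2 female mutants in the fits, and few fragments of *Pitx3*, *Foxa2* and *Slc6a3* in SP, small differences may have been missed. The size of difference that could be detected was not tested.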
